A study of Mus musculus with 6 samples.

Results

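The tumour suppressor p53, encoded by Trp53, and 9 genes that it is known to activate were followed in bulge stem cells (SCs) of control mice and of mice with an epidermal deletion of the gene of integrin-linked kinase (ILK). The targets were Mdm2, Bax, Bbc3, Pmaip1, Ccng1, Phlda3, Zmat3, Sesn2 and Trp53inp1, chosen by name for their place in the pathway. All 10 genes were found among the 43274 genes of the expression tables by their Ensembl identifiers. All 10 were also among the 16368 genes that were tested because their mean normalized count in the 6 libraries reached 10. A normalized count is the number of reads on a gene divided by a size factor of its library, and 1 read was worth 0.726 to 1.52 normalized counts.

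RNA sequencing covered 3 control and 3 ILK-K5 libraries of CD34-positive cells with high α6 integrin, sorted by FACS from epidermis of mice at postnatal day 21. Both genotypes carried the K5-Cre transgene, with 1 floxed allele of Ilk in control mice (labelled ILK +/-) and 2 floxed alleles in ILK-K5 mice (labelled ILK -/-). The keratin 5 promoter drives Cre throughout the basal epidermis and hair follicle from before birth, so the deletion was not limited to the bulge. The sources used here do not say whether a library came from 1 mouse or from several, and p-values measure the spread between these libraries.

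Between 8228019 and 11969072 reads per library fell on genes, and 11.5 to 27.6% of them were mitochondrial. The targeted gene itself was low in both genotypes, with 10.6, 16.7 and 38.5 normalized counts of Ilk in control replicates 1 to 3 and 14.8, 30.9 and 29.2 in ILK-K5 replicates 1 to 3. Ilk was thus no lower in ILK-K5, with a log2 difference of 0.30 (adjusted p = 0.933). Exons of Ilk overlap those of Taf10 and Rrp8, and the part of this overlap in the count was not tested. The Ilk count did not check the genotype. Of the 16368 tested genes, 479 (2.93%) were called higher and 98 (0.599%) lower in ILK-K5, where called means that limma's p-value did not exceed 0.05 after Benjamini-Hochberg adjustment. The 10 markers of bulge SCs summed to between 85137 and 155822 normalized counts in controls and between 55446 and 101428 in ILK-K5, and none was at 0 in a control. Of these 10 markers 0 were called higher and 2 lower, and 8 estimates lay below 0. The growth factor gene Fgf18 had a log2 difference of -5.41 with an adjusted p of 0.00727. The sorting marker Cd34 fell from 2009, 947 and 1960 normalized counts in controls to 296, 560 and 433 in ILK-K5 (adjusted p = 0.0239).

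p53 is a transcription factor that is kept scarce by the ubiquitin ligase Mdm2 and becomes stable after DNA damage, replication stress or other insults. It then binds pairs of short half-sites in DNA and activates genes for cell cycle arrest, DNA repair, altered metabolism or cell death. Because Mdm2 is itself a target, the pathway holds itself in check, and because p53 is regulated mainly as a protein, the level of Trp53 RNA is not a measure of its activity. In skin p53 answers to ultraviolet light and restrains tumours, and the level of its targets is commonly read as a sign of its activity.

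The DNA in front of these genes shows where p53 could act directly, so promoter windows from RefSeq (GRCm38.p6) were searched for pairs of the p53 consensus half-site. Each window ran from 250 bases before to 50 bases after a gene's start. A half-site has 10 bases with the core CNNG, where both N had to be A or T, and its consensus reads the same on both strands. A pair could be up to 13 bases apart and hold up to 3 mismatches outside the cores. Such a pair was found in 2207 of all 32851 windows (6.72%). A window was at hand for 7 of the 10 genes, and 3 of these held a pair, Trp53 itself, Bax and Bbc3. A gene counted if any of its windows held a pair, and Bbc3 had 3 windows, so this is not a share of windows. The best pair of each is shown with 10 bases on either side and the half-sites in capitals, and that of Cdkn1a, the gene of the arrest protein p21, is added as a well-known p53 target.
Trp53: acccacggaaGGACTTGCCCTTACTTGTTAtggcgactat
Bax: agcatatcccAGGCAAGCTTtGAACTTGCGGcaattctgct
Bbc3: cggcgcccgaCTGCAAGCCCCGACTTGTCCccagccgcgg
Cdkn1a: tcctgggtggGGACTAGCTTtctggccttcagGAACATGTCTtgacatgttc
The Trp53 stretch lies at chr11:69580274-69580313 on the plus strand, and its pair begins 75 bases before the start with 3 mismatches. The Bax stretch lies at chr7:45467069-45467109 on the minus strand, and its pair begins 201 bases before the start with 2 mismatches and a spacer of 1 base. The Bbc3 stretch, in 1 of 3 windows of this gene, lies at chr7:16309476-16309515 on the plus strand, and its pair begins 97 bases before the start with 3 mismatches. The Cdkn1a stretch, in 1 of 2 windows of this gene, lies at chr17:29090896-29090947 on the plus strand. Its pair begins 73 bases before the start with 0 mismatches and a spacer of 12 bases. This window held 2 pairs, and the 10 bases printed after the second half-site are a half-site of the other pair. The windows of Mdm2, Ccng1, Phlda3 and Sesn2 held no such pair, which says only that these letters are not in these windows.

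None of the 10 genes differed detectably between genotypes. In limma 0 of 10 were called and 0 of 10 had an unadjusted p-value under 0.05, which 12.3% of all tested genes had, and edgeR and DESeq2 on the recovered reads also called none. The libraries of the genotypes overlapped for every one of the 10, and they did not overlap for 17.9% of all tested genes. With only 10 genes, counts of 0 do not set them apart from these shares. The estimates lay above 0 for 6 genes and below 0 for 4, and their median log2 difference was 0.04, beside 0.01 for all tested genes. Adjusted p-values ran from 0.763 to 0.9996. In RNA of a sorted population, fewer cells that express a gene and less RNA per cell cannot be told apart.

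**Figure D1:**
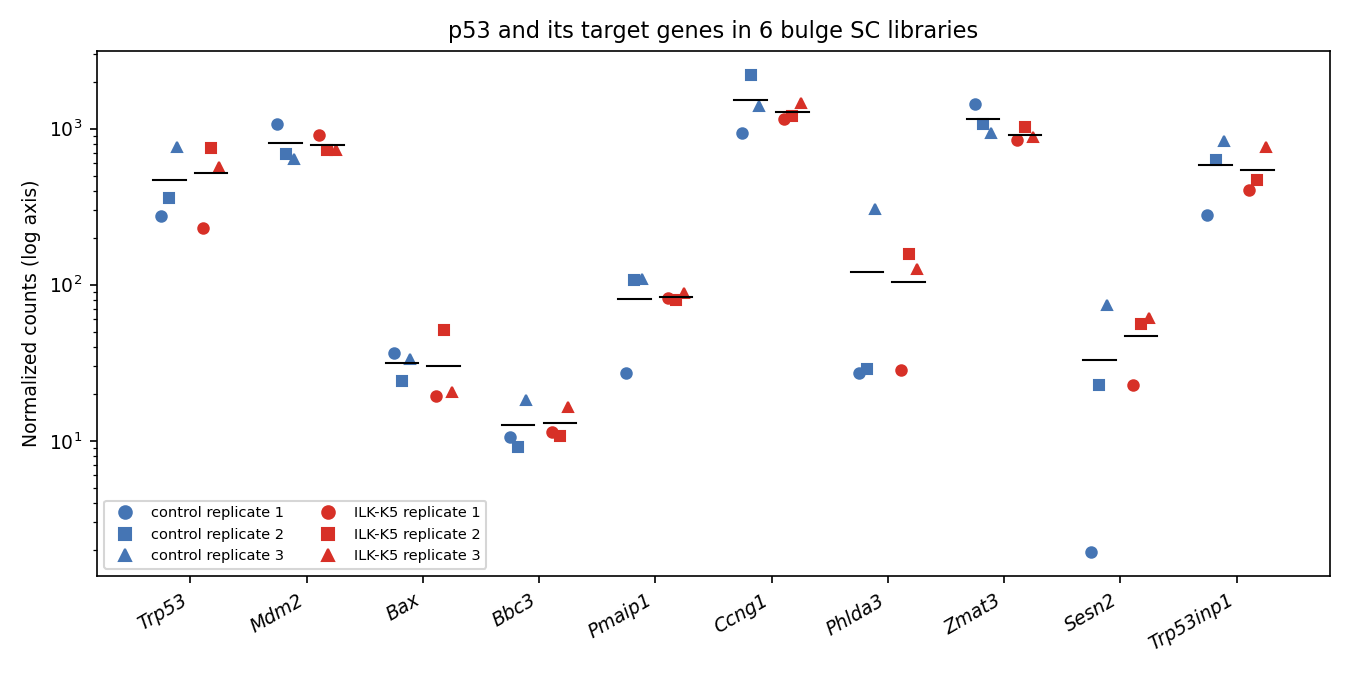
Normalized counts on a log axis of p53 and its 9 target genes in the 3 control libraries (blue) and the 3 ILK-K5 libraries (red), with the symbol giving the replicate number and a black bar the mean of each genotype. The genotypes overlap for all 10 genes, and Sesn2 in control replicate 1 is the lowest point, at 1.93 normalized counts.

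Trp53 and the gene of its inhibitor were both well covered. Trp53 (ENSMUSG00000059552, chr11:69580359-69591873, plus strand, GRCm38) had 277, 362 and 763 normalized counts in control replicates 1 to 3 and 231, 753 and 567 in ILK-K5 replicates 1 to 3. Both genotypes ran from low to high, with replicate 1 the lowest in each. The log2 difference of ILK-K5 from control was 0.12 ± 0.50 (SE, n = 3 and 3; limma adjusted p = 0.966), and its 95% interval held folds of 0.495 to 2.39. The Trp53 pseudogene Trp53-ps was counted once in control replicate 3 and not in the other libraries. Where reads that fit both genes were placed is not known, so this does not show whether such reads are among those of Trp53.

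Mdm2, which marks p53 for degradation and is among its most direct targets, was steadier. Mdm2 (ENSMUSG00000020184, chr10:117688875-117710758, minus strand) had 1080, 693 and 639 normalized counts in controls and 913, 727 and 735 in ILK-K5. Here replicate 1 was the highest library of each genotype, and all ILK-K5 libraries lay within the range of the controls. The log2 difference was 0.01 ± 0.28 (SE, n = 3 and 3; limma adjusted p = 0.997), and the 95% interval held folds of 0.646 to 1.57. A 2-fold difference of Mdm2 in either direction was thus outside the interval, while for Trp53 a doubling was inside it.

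Bax, Bbc3 and Pmaip1 encode proteins of the Bcl-2 family through which p53 can trigger cell death. Bax forms pores in the outer mitochondrial membrane, and Bbc3 (Puma) and Pmaip1 (Noxa) neutralise proteins that hold it back. Bax (ENSMUSG00000003873, chr7:45461697-45466898, minus strand) had 36.7, 24.3 and 33.4 normalized counts in controls and 19.4, 50.9 and 20.5 in ILK-K5. The ILK-K5 libraries spanned the controls on both sides, and the log2 difference was -0.18 ± 0.55 (SE, n = 3 and 3; limma adjusted p = 0.956). Of the exon bases of Bax, 12.2% are shared with Gm45808 on the same strand, and none of the exon bases of the other 9 genes is shared with another gene.

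Bbc3 (ENSMUSG00000002083, chr7:16308393-16318205, plus strand) had the lowest mean of the 10 genes, with 10.6, 9.12 and 18.1 normalized counts in controls and 11.4, 10.8 and 16.6 in ILK-K5. These rest on 6 to 25 reads per library, and replicate 3 was highest in each genotype. Its log2 difference was 0.06 ± 0.64 (SE, n = 3 and 3; limma adjusted p = 0.987). Its 95% interval held folds of 0.387 to 2.82, so that a 2-fold difference in either direction lay inside it.

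Pmaip1 (ENSMUSG00000024521, chr18:66458533-66465565, plus strand) had 27.0, 108 and 110 normalized counts in controls and 82.0, 80.2 and 88.6 in ILK-K5. The ILK-K5 libraries lay close together and between the low control replicate 1, with 28 reads, and the other controls. Its log2 difference was 0.28 ± 0.55 (SE, n = 3 and 3; limma adjusted p = 0.927). Without control replicate 1 it turned to -0.38, with an adjusted p of 0.808.

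Ccng1, Phlda3, Zmat3, Sesn2 and Trp53inp1 serve p53 in growth control and stress. Ccng1 encodes cyclin G1, which brings a phosphatase to Mdm2, and it was the most abundant of the 10. Ccng1 (ENSMUSG00000020326, chr11:40748552-40755311, minus strand) had 936, 2222 and 1407 normalized counts in controls and 1149, 1210 and 1461 in ILK-K5. All ILK-K5 libraries lay within the control range, and replicate 1 was the lowest of each genotype. The log2 difference was -0.18 ± 0.33 (SE, n = 3 and 3; limma adjusted p = 0.923), with folds of 0.525 to 1.49 in the 95% interval.

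Phlda3 encodes a small lipid-binding protein that competes with the survival kinase Akt for the membrane. Phlda3 (ENSMUSG00000041801, chr1:135766119-135769136, plus strand) had 27.0, 28.9 and 305 normalized counts in controls and 28.5, 157 and 127 in ILK-K5. Control replicate 3 was above every other library, and control replicates 1 and 2 were as low as ILK-K5 replicate 1. Its log2 difference was 0.40 ± 0.97 (SE, n = 3 and 3; limma adjusted p = 0.940), and the 95% interval held folds of 0.292 to 5.98. The sign depended on the scale, since the mean normalized count was 120 in controls and 104 in ILK-K5, and edgeR and DESeq2 both gave -0.24. Its residual SD of 1.67 was above that of 96.8% of all tested genes.

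Zmat3 encodes a zinc finger protein that binds RNA, and it had the lowest residual SD within genotypes of the 10 genes, 0.25. Zmat3 (ENSMUSG00000027663, chr3:32334792-32366014, minus strand) had 1449, 1075 and 943 normalized counts in controls and 845, 1025 and 880 in ILK-K5. Control replicate 1 was the highest library, and ILK-K5 replicate 2 lay between the other controls. Its log2 difference was -0.32 ± 0.26 (SE, n = 3 and 3; limma adjusted p = 0.777), with folds of 0.533 to 1.21 in the 95% interval. A 2-fold difference in either direction was outside it.

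Sesn2 encodes sestrin 2, which restrains mTORC1 when nutrients are short or oxidants are high. Sesn2 (ENSMUSG00000028893, chr4:132492032-132510501, minus strand) had 1.93, 22.8 and 74.0 normalized counts in controls and 22.8, 56.3 and 61.4 in ILK-K5. It had the largest estimate of the 10, a log2 difference of 1.34 ± 1.06 (SE, n = 3 and 3; limma adjusted p = 0.763), and the widest interval, with folds of 0.484 to 13.3. The estimate rested on control replicate 1, where Sesn2 had 2 reads, and it was 0.47 in edgeR. Without that library the log2 difference was 0.057, and without control replicate 3 it was 2.40, with an adjusted p of 0.249.

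Trp53inp1 encodes a nuclear and autophagy protein that promotes the modification of p53 in the cell death programme. Trp53inp1 (ENSMUSG00000028211, chr4:11156431-11174379, plus strand) had 280, 626 and 837 normalized counts in controls and 406, 469 and 767 in ILK-K5. Replicate 1 was again the lowest library of each genotype, and all ILK-K5 libraries lay within the control range. The log2 difference was -0.00 ± 0.43 (SE, n = 3 and 3; limma adjusted p = 0.9996), and the 95% interval held folds of 0.510 to 1.96.

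**Figure D2:**
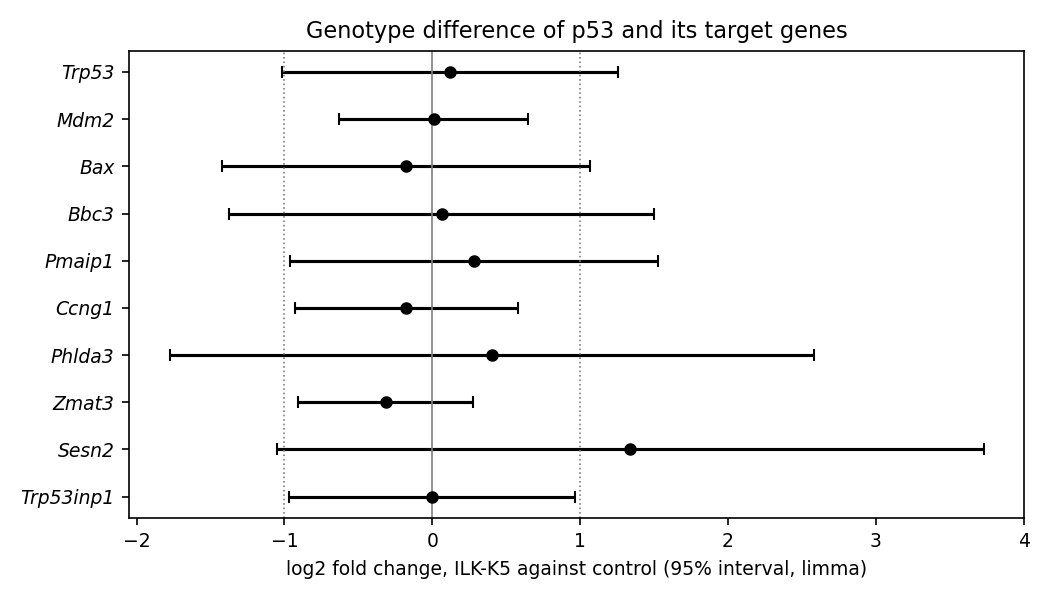
Log2 fold change of ILK-K5 against control from limma for each of the 10 genes, with points for the estimate and bars for the 95% interval, and dotted lines at a 2-fold difference in either direction. All 10 intervals include 0, and those of Sesn2 and Phlda3 are the widest.

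The intervals set what these libraries could show. The distance from the estimate to either end of the 95% interval had a median of 1.19 on the log2 scale for the 10 genes and 1.05 for all tested genes. Mdm2, Zmat3, Ccng1 and Trp53inp1 had intervals that held no 2-fold difference in either direction. For Trp53, Bax, Bbc3, Pmaip1, Phlda3 and Sesn2 at least 1 such difference remained inside.

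Levels between the genes were compared per length, as FPKM (fragments scaled to the length of the gene and, here, to the size factor of the library). The mean FPKM over the 6 libraries was 40.8 for Ccng1, 16.1 for Mdm2, 12.5 for Trp53, 9.29 for Zmat3, 8.94 for Trp53inp1 and 7.38 for Phlda3. It was 3.64 for Bax, 3.20 for Pmaip1, 1.18 for Sesn2 and 0.652 for Bbc3. Only Ccng1 stood clear of its neighbour, with FPKM from 27.3 to 64.9 against 12.9 to 21.8 for Mdm2, and the ranges of every other pair of neighbours overlapped. Among all tested genes, 93.1% had a mean FPKM at or below that of Ccng1 and 10.6% one at or below that of Bbc3. The 3 death genes were thus all in the lower part of this order, with Sesn2.

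For 9 of the 10 genes, all but Zmat3, the residual SD among libraries of a genotype was larger than the log2 difference between the genotypes. Replicate 1 was the lowest library of both genotypes for Trp53, Ccng1, Phlda3, Sesn2 and Trp53inp1, that is for 5 of 10 genes, beside 25.4% of all tested genes. It was the highest of both genotypes for 1 gene, Mdm2, beside 24.9% of all tested genes. The replicate 1 libraries of both genotypes carry another number in the deposited column names than replicates 2 and 3, and the sources used here do not say what it stands for. Their share of mitochondrial reads was 23.6% for control and 24.2% for ILK-K5, beside 11.5 to 27.6% in the other 4, and its part in the pattern was not tested.

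The genotypes were therefore also compared within each of these sets of libraries. Between the replicate 1 libraries, ILK-K5 was above control for 6 genes and below for 4, with log2 differences from -0.89 for Bax to 3.02 for Sesn2, and with 1 library on each side there is no test. Within replicates 2 and 3, none of the 10 genes was called by limma, with adjusted p-values of 0.716 to 0.992. There the log2 difference was 0.31 for Trp53, 0.14 for Mdm2, 0.18 for Bax, 0.05 for Bbc3, 0.57 for Phlda3 and 0.50 for Sesn2. It was -0.41 for Ccng1, -0.27 for Trp53inp1 and -0.08 for Zmat3. That of Pmaip1 was -0.36 within replicates 2 and 3 and 1.57 between the replicate 1 libraries.

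**Figure D3:**
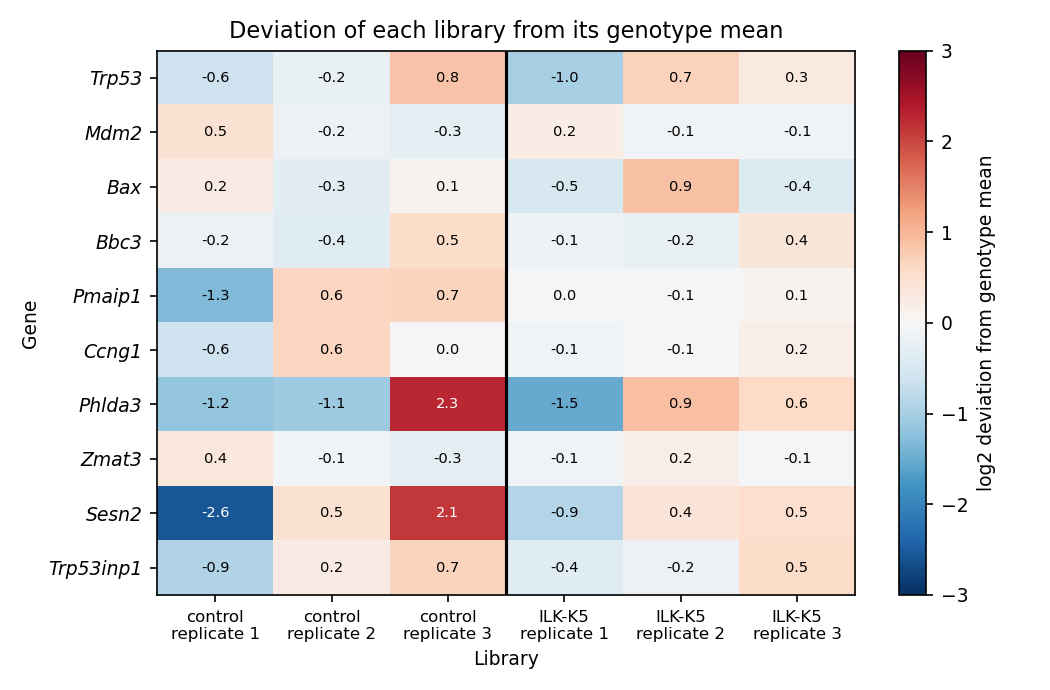
Deviation of each library (columns) from the mean of its genotype on the scale of log2 of the normalized count plus 1, for the 10 genes (rows), with red above and blue below the mean. The column of control replicate 1 is below 0 for 7 genes and that of ILK-K5 replicate 1 for 9, and Sesn2 and Phlda3 have the strongest colours.

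The tested genes whose pattern over the 6 libraries was most like that of Trp53 were the pseudogene Gstp-ps, the mitochondrial aminotransferase gene Bcat2 and the lysosomal scaffold gene Lamtor2. Pearson's r with Trp53 on the log2 scale over 6 libraries was 0.999 for Gstp-ps, 0.997 for Bcat2 and 0.996 for Lamtor2. These are the highest of 16368 genes on 6 shared libraries and serve as a description. Lamtor2 was likewise lowest in replicate 1 of both genotypes, with 27.0, 53.2 and 210 normalized counts in controls and 20.5, 262 and 117 in ILK-K5.

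Beyond the 10 genes, 125 further genes of the pathway were listed, of which 124 had a matching symbol and 115 were tested. In ILK-K5 5 of the 115 were called higher and 0 lower, beside 2.93% and 0.599% of all tested genes, and at an unadjusted p-value under 0.05 10 were higher and 2 lower, beside 8.18% and 4.11% of all tested genes. edgeR and DESeq2 on the recovered reads also called 0 of them lower. Their median log2 difference was -0.04, beside 0.01 for all tested genes. The 5 genes were Plk2 among the targets of p53 and Bcl2l11, Bcl2a1a, Bcl2a1b and Bcl2a1d among the Bcl-2 family.

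**Figure D4:**
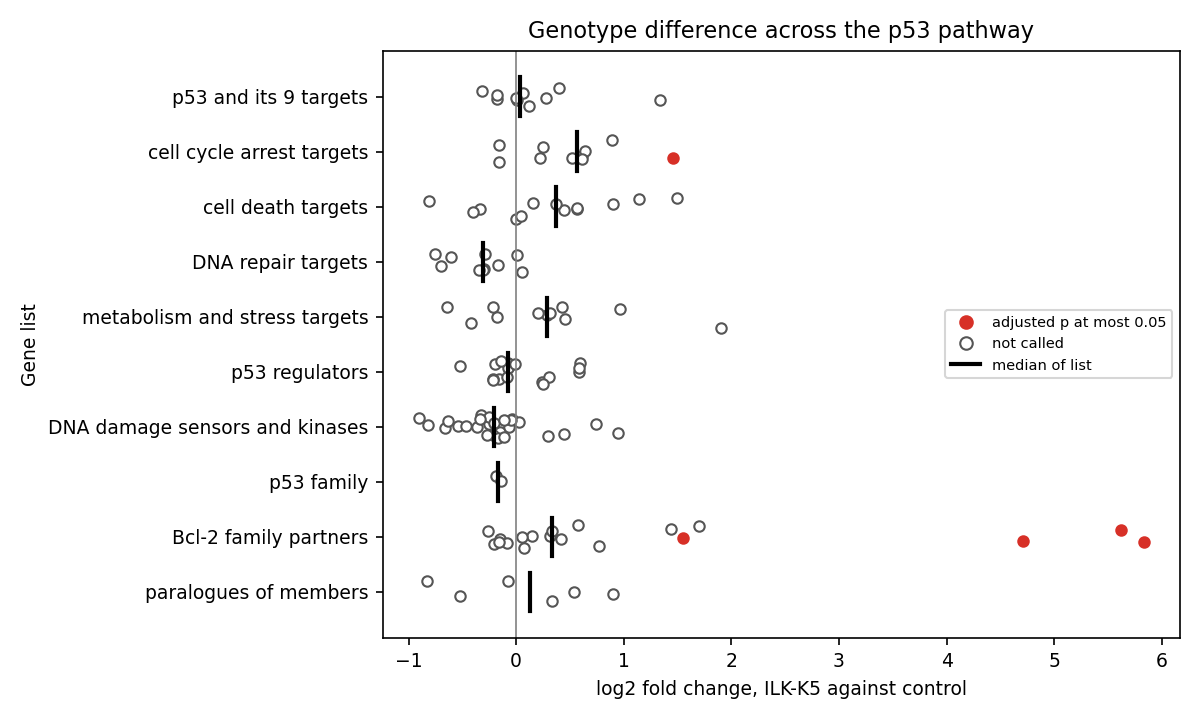
Log2 fold change of ILK-K5 against control for every tested gene of each pathway list (rows), with called genes filled in red, the others open, and a black bar at the median of the list. The 5 red points are all to the right of 0, and the points of p53 and its 9 targets lie between -0.32 and 1.34.

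Targets of p53 other than the 9 had a median log2 difference of 0.18 over 44 tested genes, with 1 called higher and 0 lower, and 3 higher and 2 lower at an unadjusted p-value under 0.05. The called gene was Plk2, a kinase of the centrosome and of stress responses. Plk2 had 115, 128 and 204 normalized counts in controls and 443, 414 and 344 in ILK-K5, and the genotypes did not overlap. It rose by 1.46 ± 0.32 on the log2 scale (SE, n = 3 and 3; limma adjusted p = 0.0385). The call was kept without control replicate 3 and lost without any other single library, where the adjusted p reached 0.189. It was also lost in edgeR, on FPKM with a pseudocount of 0.1 and within replicates 2 and 3. DESeq2 kept it (adjusted p = 0.00301).

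The targets for cell cycle arrest had 10 tested of 11 genes, a median of 0.57 and no call besides Plk2. Cdkn1a had 221, 426 and 1035 normalized counts in controls and 586, 865 and 684 in ILK-K5. Its ILK-K5 libraries lay within the control range, and the log2 difference was 0.61 ± 0.50 (SE, n = 3 and 3; limma adjusted p = 0.771). That of Cdkn1a was 0.081 without control replicate 1, 1.19 without control replicate 3 and 0.33 in edgeR. Sfn, the gene of 14-3-3σ, had a log2 difference of 0.89 that was not called (adjusted p = 0.744), with 7915 to 38299 normalized counts in controls and 21633 to 78637 in ILK-K5.

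Among 13 tested targets for cell death 0 were called by limma, with 1 higher and 1 lower at an unadjusted p-value under 0.05 and a median of 0.37. The largest estimate was that of Steap3, a ferrireductase gene, at 1.496 (adjusted p = 0.441). The 10 targets for DNA repair had 0 calls, 0 higher and 1 lower at an unadjusted p-value under 0.05, 8 estimates below 0 and a median of -0.31. Rrm2b, a ribonucleotide reductase subunit, had the largest difference among them, -0.76 (adjusted p = 0.703).

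The targets for metabolism and stress had 11 tested of 13 genes, 0 calls, 1 gene higher at an unadjusted p-value under 0.05, and a median of 0.29. That gene was Ddit4 (Redd1), which restrains mTORC1 as sestrin 2 does. Ddit4 had 108, 254 and 371 normalized counts in controls and 441, 1083 and 1129 in ILK-K5, with every ILK-K5 library above every control. The log2 difference was 1.90 ± 0.51 (SE, n = 3 and 3), and the adjusted p of 0.0921 in limma missed the limit. It was called in DESeq2 (adjusted p = 0.00968), within replicates 2 and 3 (0.0214), without control replicate 3 (0.0489) and with a term for the number in the column names (0.000898). It was not called in edgeR (0.110), and over single libraries left out the adjusted p reached 0.331.

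The regulators of p53 had 17 tested of 19 genes, 0 calls and 0 genes at an unadjusted p-value under 0.05, and a median of -0.08. Rchy1, a ubiquitin ligase for p53, had the largest difference among them, 0.59 (adjusted p = 0.545). Cdkn2a, whose product Arf blocks Mdm2, was below 10 normalized counts on average and was not tested. The related factors Trp63 and Trp73 were tested without a call, and Trp63, which maintains basal keratinocytes, had 8087 to 12759 normalized counts over the 6 libraries and a log2 difference of -0.19 (adjusted p = 0.902).

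The study asked whether ILK-deficient follicles are under replication stress. By staining skin at postnatal day 21, it reported more follicles with γH2AX, a phosphorylated histone, and with p53 protein in ILK-K5 mice. Those are proteins in tissue sections, while the values here are RNA of sorted bulge SCs. The sensors and kinases of DNA damage act upstream of p53. Their RNA levels do not measure replication stress or the activity of their products. Of these 27 tested genes 0 were called by limma and 0 had an unadjusted p-value under 0.05, beside 12.3% of all tested genes. Estimates lay below 0 for 22 of the 27, beside 49.5% of all tested genes, with a median of -0.21. All 27 genes were read from the same 6 libraries, so these are not 27 separate observations. The kinase gene Atr had 607, 444 and 306 normalized counts in controls and 613, 236 and 365 in ILK-K5 (log2 difference -0.21, adjusted p = 0.921). Its partner Chek1 had 171, 230 and 59.5 in controls and 110, 86.4 and 78.9 in ILK-K5 (log2 difference -0.54, adjusted p = 0.809). That of Chek1 was -0.15 without control replicate 2 and -1.11 without control replicate 3. The genotypes overlapped for both.

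H2afx, the gene of the histone that is phosphorylated at breaks, had 46.3, 15.2 and 45.0 normalized counts in controls and 59.2, 64.8 and 40.9 in ILK-K5 (log2 difference 0.74, adjusted p = 0.732). Clspn, which links stalled forks to Chek1, had 213, 47.1 and 59.5 in controls and 112, 71.0 and 66.2 in ILK-K5 (log2 difference -0.07, adjusted p = 0.986). Both overlapped between genotypes, and without 1 library the log2 difference of H2afx ran from 0.24 to 1.01. RNA does not show the phosphorylation of either product. The largest difference of this list was that of Rad9a, a clamp subunit, at 0.95 (adjusted p = 0.481).

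The Bcl-2 family and the caspases around Bax, Bbc3 and Pmaip1 had 19 tested of 21 genes, 4 called higher and 0 lower, with 6 higher and 0 lower at an unadjusted p-value under 0.05 and a median of 0.34. Of all tested genes 2.93% were called higher, and 8.18% were higher at an unadjusted p-value under 0.05. Bcl2l11 (Bim) promotes death in the manner of Bbc3, and it is best known as a target of Foxo factors. Bcl2l11 had 100, 88.2 and 130 normalized counts in controls and 287, 257 and 397 in ILK-K5, which did not overlap. It rose by 1.55 ± 0.32 on the log2 scale (SE, n = 3 and 3; limma adjusted p = 0.0312). The call was kept without control replicate 3 and lost without any other single library, where the adjusted p reached 0.215. It was also lost on FPKM with a pseudocount of 0.1 and within replicates 2 and 3. It was kept in edgeR (adjusted p = 0.0397) and in DESeq2 (adjusted p = 0.000864).

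Bcl2a1a, Bcl2a1b and Bcl2a1d encode survival proteins of the A1 group that blood cells express. They are near-identical copies among which reads can be split, so their values are uncertain one by one. Summed, they had 0, 16.7 and 9.43 normalized counts in controls, from 0, 11 and 13 reads, and 532, 329 and 280 in ILK-K5, from 467, 426 and 287 reads. Each was called higher, with log2 differences of 4.71 for Bcl2a1a (adjusted p = 0.0187), 5.63 for Bcl2a1b (adjusted p = 0.00372) and 5.83 for Bcl2a1d (adjusted p = 0.00219), which depend on the pseudocount since control replicate 1 had no read. With a pseudocount of 0.1 Bcl2a1a lost its call (adjusted p = 0.0956). Bcl2a1b and Bcl2a1d kept the call without any single library, and Bcl2a1a lost it without any one of the 3 ILK-K5 libraries (adjusted p up to 0.0952).

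Among paralogues of the 10 genes, 6 of 9 were tested and 0 called by limma, with 1 higher and 0 lower at an unadjusted p-value under 0.05. That one was Phlda1, a relative of Phlda3, with 91.4 to 136 normalized counts in controls and 159 to 272 in ILK-K5 (log2 difference 0.90, adjusted p = 0.286).

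**Figure D5:**
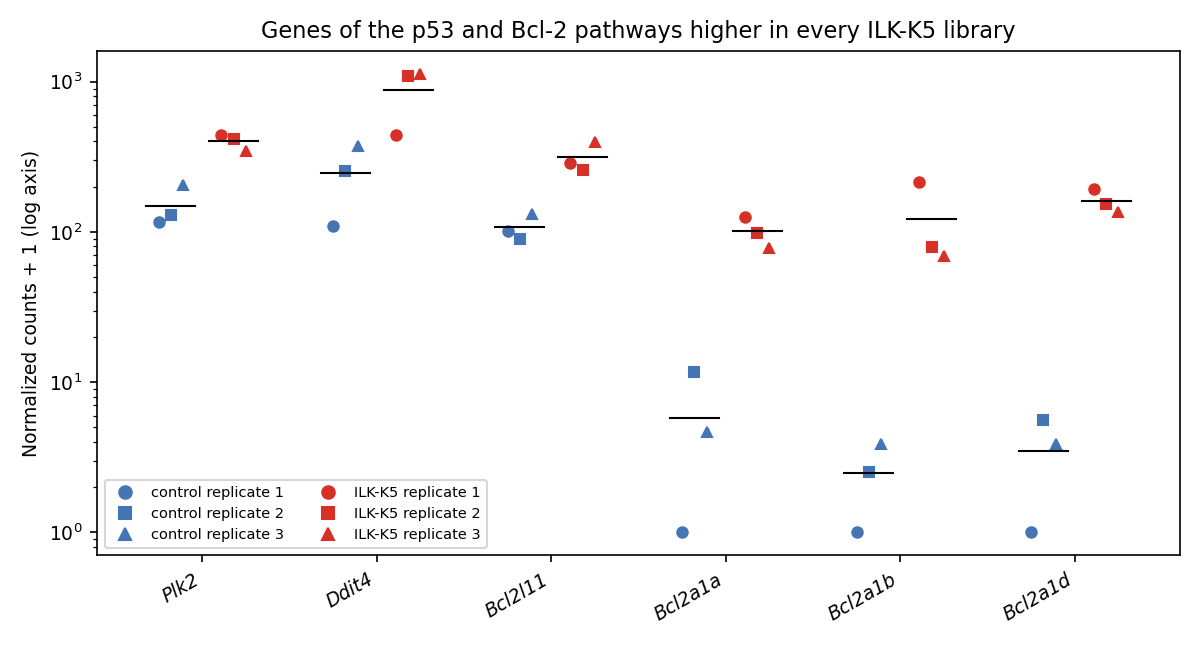
Normalized counts plus 1 on a log axis of Plk2, Ddit4, Bcl2l11 and the 3 Bcl2a1 genes in the 3 control libraries (blue) and the 3 ILK-K5 libraries (red), with the symbol giving the replicate number and a black bar the mean of each genotype. Every red point is above every blue point of its gene, Ddit4 was not called, and the 3 Bcl2a1 genes have no read in control replicate 1.

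Markers of other cells moved with the genotype beside these genes. Macrophage markers, 15 of 15 called higher, summed to between 112 and 190 normalized counts in controls and between 15412 and 22830 in ILK-K5, and 7 of the 15 (C1qa, C1qc, Lyz2, Cd14, Fcgr3, Aif1 and Fcer1g) were at 0 in at least 1 control. Markers of leukocytes in general, 5 of 5 called higher, summed to 82.1 to 197 in controls and 4040 to 5056 in ILK-K5, and Coro1a and Cd52 were at 0 in at least 1 control. Markers of Langerhans and dendritic cells, 5 of 7 called higher, summed to 508 to 1382 and 13758 to 21790. The part of such cells in the calls of the Bcl2a1 genes, Bcl2l11 and Plk2, and in the values of Ddit4, was not tested.

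T cell markers, 2 of 6 tested called higher, summed to 167 to 193 normalized counts in controls and 415 to 465 in ILK-K5, and Trac, Cd2 and Cd8a were at 0 in at least 1 control. Fibroblast markers, 1 of 4 tested called higher, summed to 703 to 779 and 1532 to 2493, with Lum at 0 in all controls. Differentiated keratinocyte markers, 1 of 8 tested called lower, summed to 4148 to 21907 and 4891 to 7869. Basal keratinocyte, endothelial and melanocyte markers had no call among 8, 3 and 4 tested genes in limma. At an unadjusted p-value under 0.05 they had 2 higher, 1 lower and 1 higher.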

How the data were processed

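CD34-positive, α6 integrin-high bulge SCs were sorted into TRIzol LS, and their RNA was amplified with Ovation RNA-Seq System V2 and made into Nextera XT libraries. The authors trimmed the read pairs, removed ribosomal reads and aligned the rest to GRCm38. The submitters' processing notes list TopHat2 2.0.14, Bowtie2 2.2.4 and DESeq2 1.6.3, and the counting program is not given in the sources used here. Because the cDNA was amplified without molecular identifiers, reads are not independent molecules. Amplification from few cells can also add spread at low counts.

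The table of normalized counts deposited by the authors holds a signal on the scale of DESeq2 size factors. In each library 100% of values were whole multiples of the value of 1 read (tolerance 1e-06), which gave back the reads. The FPKM values deposited by the authors equal these counts times 1 constant per gene. The deposited results of the authors' own comparison (fold changes, Wald statistics and p-values at several limits) were not used. Symbols and coordinates came from GENCODE M21 and matched 42107 of 43274 genes (97.3%), and 1 listed gene, Trp53rk, had no match.

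The normalized counts plus 1 were put on a log2 scale and compared between genotypes with limma 3.58.1 (lmFit, eBayes with trend; R 4.3.3), for 16368 genes with a mean of at least 10, with no covariate. Fold changes are on this scale, where a larger pseudocount pulls those of low genes towards 0. That of Sesn2 was 1.51 with a pseudocount of 0.1 and 0.96 with one of 5, but 0.47 in edgeR. All p-values are two-sided and adjusted over all tested genes. An exact permutation test of 3 against 3 libraries cannot give a p-value below 0.1 and was not used. The script was run on simulated counts with the same dispersion for all genes, which checks the code and not its fit to these data. The 18 alternatives included other pseudocounts, filters and scalings, edgeR 4.0.16 and DESeq2 1.42.0 on the recovered reads, and each library left out.

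The 10 genes, the pathway and marker lists and the tests were chosen with earlier results of these data known. Named besides the 10 were, for each pathway list, up to 4 called genes and the largest difference among the rest, then Cdkn1a, Atr, Chek1, H2afx and Clspn, and the 3 genes most like Trp53. A gene that meets this rule is not reported here. Ilk, Cd34, Fgf18, Trp53-ps, Trp73 and Cdkn2a are given as checks or as members of a list that could not be tested or called.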

Additional observations from a re-analysis of the deposited data

How the results depend on the processing

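None of the 10 genes was called under any of the 18 alternatives, with 0 higher and 0 lower in each, and the lowest adjusted p was 0.249, for Sesn2 without control replicate 3. Bax, Bbc3 and Sesn2 have means below 50 normalized counts and gave no value under that filter. The median log2 difference of the 10 genes ran from -0.16 to 0.33 when 1 library was left out, so its sign was not stable. No other pathway gene was called lower under any alternative.

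The number of all genes called higher in ILK-K5 was 479 and rose to 772 with DESeq2, to 848 with the replicate block and to 846 with a term for the number in the column names. The number called lower was 98 and rose to 280, 269 and 286. Without 1 library, 217 to 554 genes were called higher and 32 to 93 lower. Of the other pathway genes, 5 were called higher, 3 on FPKM with a pseudocount of 0.1 and 2 to 7 without 1 library. With the replicate block 7 were called higher, among them Ddit4 with an adjusted p of 0.00069. The deviations of libraries with the same replicate number from their genotype means correlated at 0.53, 0.02 and 0.31 over all tested genes. Control replicate 3 correlated more with ILK-K5 replicate 2, at 0.50, and control replicate 2 lay between -0.06 and 0.07 with every ILK-K5 library. The replicate numbers were therefore not taken to pair the samples. By the number in the column names, the correlations were 0.02 to 0.53 between libraries of the same number. They were -0.06 to -0.55 between libraries of different numbers. The deviations of the 3 libraries of a genotype sum to 0 for each gene, so these correlations constrain each other and are not separate observations.

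Several estimates changed sign. With edgeR and DESeq2, Mdm2 was at -0.024 and -0.050 and Phlda3 at -0.24 and -0.24. Bbc3 was at -0.013 with DESeq2 and -0.19 after quantile normalization, which put Trp63 at 0.071. Within replicates 2 and 3, Bax was at 0.18, Pmaip1 at -0.36 and Clspn at 0.37. Without 1 library, the log2 difference ran from -0.23 to 0.62 for Trp53, from -0.14 to 0.24 for Mdm2 and from -0.62 to 0.060 for Bax. It ran from -0.12 to 0.34 for Bbc3, from -0.38 to 0.61 for Pmaip1, from -0.48 to 0.14 for Ccng1 and from -0.19 to 1.54 for Phlda3. For Trp53inp1 it ran from -0.46 to 0.33, for Atr from -0.57 to 0.12 and for Clspn from -0.48 to 0.60. With the sign kept, Sfn ran from 0.24 to 1.37, Steap3 from 0.81 to 1.97 and Rrm2b from -1.20 to -0.26. Zmat3 stayed below 0 and Sesn2 above 0 under all alternatives that gave a value. The cause of these turns was not tested. The lowest counts were those of Bbc3, Bax and Sesn2, with 6 to 25, 16 to 66 and 2 to 102 reads per library. Trp53, Mdm2, Ccng1, Zmat3 and Trp53inp1, with at least 203 reads in every library, had the smaller SEs, 0.26 to 0.50. The other genes had SEs of 0.55 to 1.06. These were not in the order of their reads, since Phlda3 with 19 to 421 reads had 0.97 and Bbc3 0.64.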
